A study of Canis lupus familiaris with 45 samples.

Results

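ITGB5, LMNA, ANKRD1 and AKAP13, 4 genes whose products link mechanical load to the cell, were followed in the dog left ventricle during heart failure induced by rapid pacing. All probe sets annotated to 1 of these symbols alone were taken, which gave 4 of 6540 genes named on the array and 8 of 23836 probe sets: 4 for AKAP13, 2 for ITGB5, 1 for LMNA and 1 for ANKRD1. A probe set is the group of short probes on an array that reports 1 transcript. The genes had been chosen by their measured values in these same dogs. Which of those values decided the choice is not known, so every contrast of a paced group with unpaced dogs was treated as used by it. Those contrasts are given as a description, and nothing is read from them as support.

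Left ventricular RNA of 15 dogs, all male and matched for age, was measured on 1-colour arrays, with 3 dogs in each of 5 groups. Each biological replicate in the labels was taken as 1 dog, and RNA was isolated 3 times from each dog, with 1 array per isolation (45 arrays). Day-0 dogs were not paced. All paced dogs had a pacemaker placed through a left thoracotomy, with its lead on the surface of the right ventricle, and were paced from there at 240 beats per minute. Pacing lasted 3 days in the Day-3 group, 1 week in the Week-1 group, 2 weeks in the Week-2 group and 3 to 4 weeks in the End-stage group. End-stage failure was established by haemodynamic measurement. Dogs of different groups were taken as different animals, so time was compared between dogs and not within them. The labels do not say whether the Day-0 dogs had the operation, so surgery and pacing cannot be told apart.

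Cardiac muscle cells carry load through adhesion sites at the cell surface, through the sarcomere and through the nuclear envelope. ITGB5 is the beta subunit of integrin alpha V beta 5, a surface receptor for vitronectin and other matrix proteins that carry the RGD motif. ANKRD1, also called cardiac ankyrin repeat protein, binds titin in the elastic part of the sarcomere and also acts in the nucleus as a cofactor of transcription, and it is widely used as a marker of cardiac stress. AKAP13, also called AKAP-Lbc, anchors protein kinase A, and LMNA encodes lamins A and C, which form the meshwork under the inner nuclear membrane.

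Values are log2 MAS5 signals averaged over the 3 arrays of a dog. A difference of 1 on this scale is a 2-fold change in signal, and levels of different probe sets are not compared. The tissue label was checked on cardiomyocyte markers: 8 of 12 had a probe set, and all 8 passed the filter on low signals described next. The lowest 40% of probe sets by mean log2 signal were left out, which left 14301 probe sets above a mean of 4.51. Of the 8 probe sets of the 4 genes, 7 passed. AKAP13 1585933_at lay just inside the limit, with a mean of 4.56, and the ITGB5 probe set 1600264_at lay outside it, with a mean of 3.12. Over 200 probe sets chosen to tell dogs apart, 41 of 45 arrays were closest to another array of their own dog. The 4 that were not were among the 6 arrays of dog 1 at Week-1 and dog 1 at End-stage, which matched each other across the labels. The main Week-1 and End-stage estimates of the 4 genes are therefore given with and without these 2 dogs. The counts of dogs without overlap, correlations, likeness, partner genes, pathway lists and cell markers keep both dogs and were not checked without them.

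ITGB5, LMNA and the brightest AKAP13 probe set were higher in the paced groups than at Day-0, with their highest means at Week-1, and ANKRD1 was lower. At Week-1 ITGB5 was 1.81-fold, AKAP13 1587481_at 1.76-fold and LMNA 1.71-fold the Day-0 level. ANKRD1 was 1.51-fold lower at Week-1 and 1.55-fold lower at End-stage. None of these differences passed limma's test across all probe sets (n = 3 dogs per group).

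**Figure D1:**
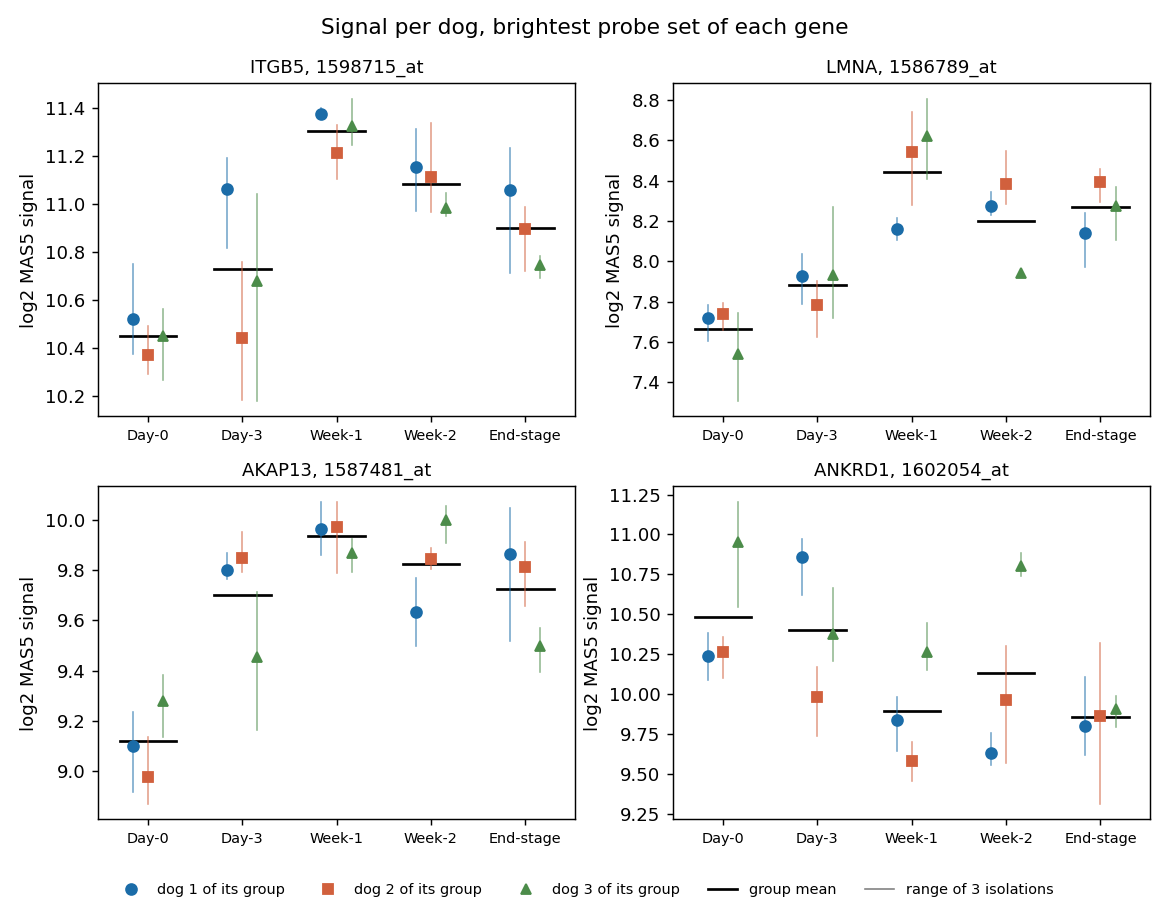
Log2 MAS5 signal of ITGB5, LMNA, AKAP13 1587481_at and ANKRD1 (vertical axes, each with its own range) in the 5 groups (horizontal axis); each point is 1 dog, the thin line the range of its 3 RNA isolations, the black bar the group mean. ITGB5, LMNA and AKAP13 have their highest group mean at Week-1, and ANKRD1 has its highest at Day-0.

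The receptor subunit ITGB5 was measured by 1598715_at. Its log2 signal was 10.52, 10.37 and 10.45 in the 3 Day-0 dogs, 11.07, 10.44 and 10.68 at Day-3, and 11.38, 11.21 and 11.33 at Week-1. It was 11.16, 11.11 and 10.98 at Week-2 and 11.06, 10.90 and 10.75 at End-stage. The Week-1 dogs lay above the dogs of every other group, and 11 of 12 paced dogs lay above the highest Day-0 dog; the exception was Day-3 dog 2. The limma estimate against Day-0 was 0.28 at Day-3, 0.86 at Week-1, 0.64 at Week-2 and 0.45 at End-stage, with an SE of 0.14 each. The Day-3 estimate was 0.11 without Day-3 dog 1 and 0.42 without Day-3 dog 2. In order of the group means, Week-1 stood apart from Week-2 without overlap, whereas Week-2 and End-stage, End-stage and Day-3, and Day-3 and Day-0 overlapped.

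Isolations of 1 dog spanned the widest range for ITGB5 in Day-3 dog 3. They gave 10.82, 11.04 and 10.18, a span that reached below the lowest Day-0 dog. In End-stage dog 1, 1 of the 2 dogs whose arrays were not grouped by dog, they gave 10.71, 11.23 and 11.24. The first value lay just below the other End-stage dogs and the other two within the range of the Week-1 dogs. The second ITGB5 probe set, 1600264_at, was too dim to be tested. Its group means ran from 2.83 at Day-0 and Week-2 to 3.47 at End-stage, its groups overlapped throughout, and its SD between isolations of a dog was 1.00, against 0.20 for 1598715_at.

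For the nuclear lamin LMNA the log2 signal of 1586789_at was 7.72, 7.74 and 7.54 at Day-0, 7.93, 7.79 and 7.93 at Day-3, and 8.16, 8.54 and 8.62 at Week-1. It was 8.28, 8.39 and 7.94 at Week-2 and 8.14, 8.39 and 8.28 at End-stage. All 12 paced dogs lay above all 3 Day-0 dogs, by a narrow margin at Day-3. Against Day-0 the estimate was 0.22 at Day-3, 0.78 at Week-1, 0.54 at Week-2 and 0.60 at End-stage, with an SE of 0.15. Week-1, End-stage and Week-2, in that order of means, overlapped with their neighbours, and Day-3 lay below Week-2 and above Day-0 without overlap. Isolations of a dog differed by an SD of 0.16, close to the SD of 0.17 between dogs of a group.

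AKAP13 1587481_at, the brightest of the 4 probe sets of this anchoring protein, gave 9.10, 8.98 and 9.28 at Day-0, 9.80, 9.85 and 9.46 at Day-3, and 9.96, 9.97 and 9.87 at Week-1. It gave 9.63, 9.85 and 9.999 at Week-2 and 9.87, 9.81 and 9.50 at End-stage. All 12 paced dogs again lay above all Day-0 dogs, and the 4 paced groups overlapped with their neighbours in the order of means. The estimate against Day-0 was 0.58 at Day-3, 0.82 at Week-1, 0.71 at Week-2 and 0.61 at End-stage, with an SE of 0.14. Of all tested probe sets, 0.909% had all 12 paced dogs above all Day-0 dogs. As in ITGB5, the isolations of End-stage dog 1 were split, at 9.52, 10.03 and 10.05.

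ANKRD1, the titin-binding stress marker, went the other way. The log2 signal of 1602054_at was 10.24, 10.26 and 10.95 at Day-0, 10.86, 9.98 and 10.38 at Day-3, and 9.84, 9.58 and 10.26 at Week-1. It was 9.63, 9.96 and 10.80 at Week-2 and 9.80, 9.86 and 9.91 at End-stage. Of the 12 paced dogs, 8 lay below the lowest Day-0 dog and 0 lay above the highest. Only the End-stage dogs were all below Day-0, and Week-2 dog 3, at 10.80, lay close to the highest dogs of Day-0 and Day-3. The estimate against Day-0 was -0.08 at Day-3, -0.59 at Week-1, -0.35 at Week-2 and -0.63 at End-stage, with an SE of 0.29. Without Day-0 dog 3, the brightest dog for ANKRD1, the last 3 were -0.36, -0.12 and -0.40. The Week-2 estimate was -0.10 without Week-2 dog 1 and -0.69 without Week-2 dog 3, and at Day-3 leaving out 1 dog gave -0.31 to 0.15. Every neighbouring pair of groups in the order of means overlapped. The 3 End-stage dogs had an SD of 0.06, against 0.34 to 0.60 in the other groups, although the isolations of End-stage dog 2 ran from 9.31 to 10.32.

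Without Week-1 dog 1 and End-stage dog 1 the Week-1 estimates were 0.82 for ITGB5, 0.92 for LMNA, 0.80 for AKAP13 1587481_at and -0.57 for ANKRD1. The End-stage estimates without these dogs were 0.37, 0.67, 0.54 and -0.60 in the same order of genes. No probe set of the 4 genes was called with or without them.

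**Figure D2:**
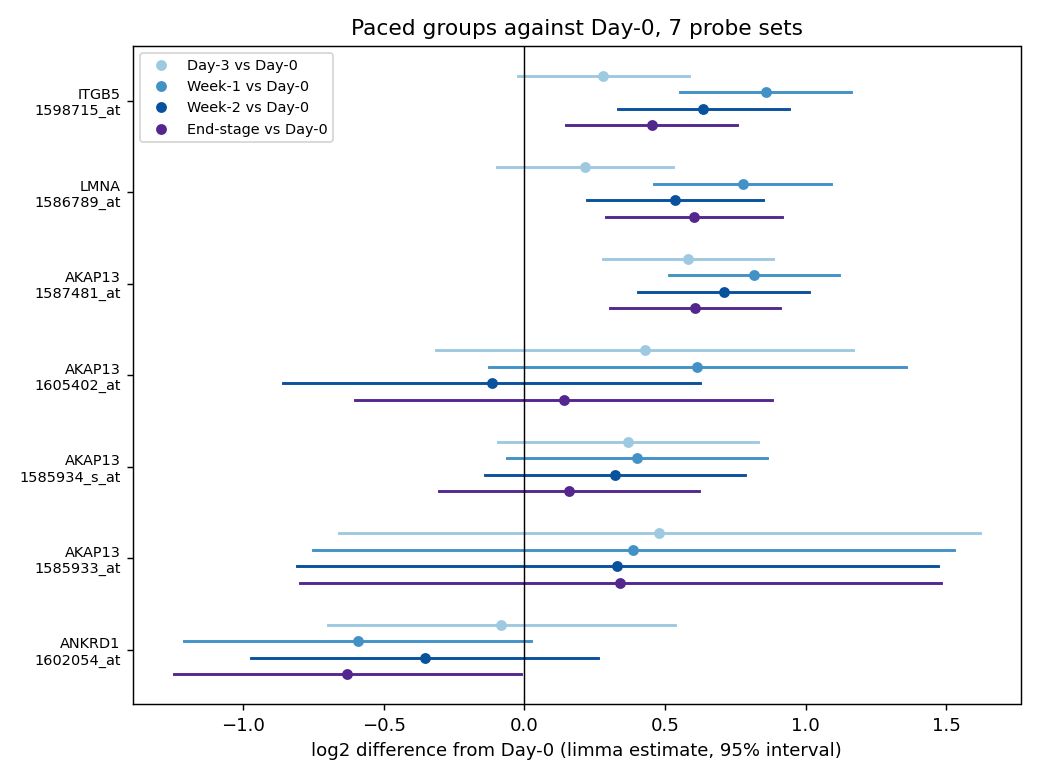
Log2 difference from Day-0 (horizontal axis) of the 7 tested probe sets (vertical axis) in each paced group; points are limma estimates and lines their 95% intervals, before any adjustment for multiple testing. The intervals of ITGB5, LMNA and AKAP13 1587481_at at Week-1, Week-2 and End-stage lie above 0, those of the other 3 AKAP13 probe sets include 0, and the ANKRD1 interval lies below 0 at End-stage only.

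The other 3 AKAP13 probe sets had smaller estimates against Day-0 than 1587481_at, with wider errors, and the difference between probe sets was not tested. Among them 1585933_at and 1585934_s_at derive from the same source sequence in the array's annotation, and the 4 derive from 3 source sequences in all. Against Day-0 the estimates in order of time were 0.43, 0.62, -0.12 and 0.14 (SE 0.35) for 1605402_at. They were 0.37, 0.40, 0.32 and 0.16 (SE 0.22) for 1585934_s_at and 0.48, 0.39, 0.33 and 0.34 (SE 0.53) for 1585933_at. Paced and Day-0 dogs overlapped for each of these 3 probe sets in every group. Without the 2 dogs named above, 1605402_at changed sign at End-stage, to -0.09, and 1585933_at was at 0.07 at Week-1.

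In 1585933_at and 1585934_s_at the dogs differed by their number within the group. For 1585934_s_at the 5 dogs numbered 1 ran from 7.18 to 7.56, the 5 numbered 2 from 6.70 to 7.15 and the 5 numbered 3 from 6.71 to 7.34. For 1585933_at the dogs numbered 1 ran from 4.92 to 5.35, those numbered 2 from 3.30 to 4.43 and those numbered 3 from 4.37 to 5.17. Dogs numbered 1 and dogs numbered 2 did not overlap in either probe set, which held for 2 of the 7 probe sets of the 4 genes and for 6.03% of all tested probe sets. This split was noticed after the values were seen. Set against the Day-0 dog of the same number, 12 of 12 paced dogs were higher in 1585934_s_at, as they were in 1587481_at, ITGB5 and LMNA. The count was 11 in 1585933_at, 7 in 1605402_at and 1 in ANKRD1, and the share over all probe sets was not counted. The same Day-0 dogs enter for each of the 4 paced groups, so these are not 12 separate comparisons. In LMNA and 1587481_at the count follows from all 12 paced dogs lying above all Day-0 dogs. The labels do not say what dogs that share a number have in common. No paced group had all 3 of its correlations with Day-0 dogs of the same number above 0.1, after removal of group means. With Day-3 they were 0.03, 0.13 and -0.08, and with Week-1 0.17, 0.11 and -0.0002. With Week-2 they were 0.04, 0.03 and 0.04, and with End-stage 0.17, -0.02 and 0.03. Over the 15 dogs 1585933_at and 1585934_s_at correlated at a Pearson r of 0.82, and at 0.85 after removal of group means. With 1587481_at they were at -0.03 and 0.06 after removal of group means.

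The probe set 1605402_at varied strongly between isolations of a dog, with an SD of 0.60 against 0.15 for 1587481_at. It gave 7.26, 7.74 and 6.73 at Day-0, 7.23, 7.42 and 8.35 at Day-3, and 8.10, 7.42 and 8.05 at Week-1. It gave 7.36, 6.79 and 7.22 at Week-2 and 7.84, 6.70 and 7.61 at End-stage. Day-0 dogs thus lay in the midst of the paced dogs, and the Week-1 dogs lay above the Week-2 dogs without overlap.

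**Figure D3:**
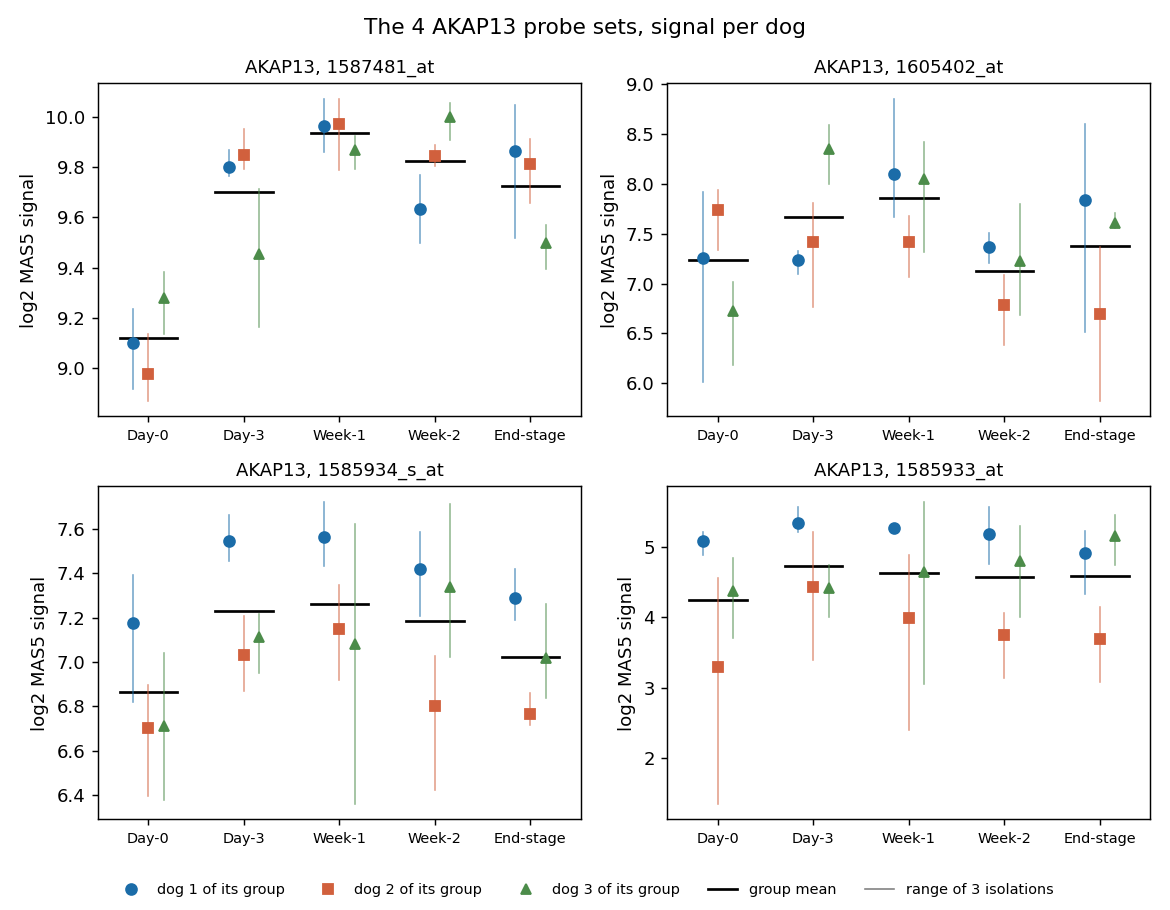
Log2 MAS5 signal of the 4 AKAP13 probe sets (vertical axes, each with its own range) in the 5 groups (horizontal axis), drawn as points per dog with the range of isolations and the group mean. In 1587481_at the 12 paced dogs lie above the Day-0 dogs, and in 1585934_s_at and 1585933_at the dogs numbered 1 lie above the dogs numbered 2 whatever the group.

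The counts over all probe sets give the background for these values. At Day-3, limma with Benjamini-Hochberg adjustment called 0 of the 7 probe sets of the 4 genes at an adjusted p under 0.05, and 0.0% of all tested probe sets. At Week-1 it called 0 of 7 and 0.028% of all, at Week-2 0 of 7 and 0.0839%, and at End-stage 0 of 7 and 0.014%. The lowest limma adjusted p of the 7 was 0.276 at Day-3, 0.0512 at Week-1, 0.0792 at Week-2 and 0.1998 at End-stage. At an unadjusted p under 0.05 the counts of the 7 were 1 at Day-3 (AKAP13 1587481_at), 3 at Week-1 and 3 at Week-2 (ITGB5, LMNA and AKAP13 1587481_at), and 4 at End-stage, when ANKRD1 joined them. Over all probe sets the unadjusted counts were 1154, 1287, 1597 and 1177. These contrasts were treated as used in choosing the genes and share the Day-0 dogs, so the counts and p-values are a description.

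Groups that did not overlap with Day-0 were counted in the same way. All 3 paced dogs lay above all Day-0 dogs in 2 of the 7 probe sets at Day-3 (6.16% of all tested), 3 of 7 at Week-1 (6.73%), 3 of 7 at Week-2 (8.08%) and 3 of 7 at End-stage (6.34%). They lay below in 0 of 7 at Day-3 (6.44% of all), 0 of 7 at Week-1 (9.4%), 0 of 7 at Week-2 (9.21%) and 1 of 7 at End-stage (7.94%), which was ANKRD1. LMNA and AKAP13 1587481_at were above in all 4 groups and ITGB5 in all but Day-3.

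Contrasts between paced groups hold no Day-0 dog, but they share paced dogs whose values may have chosen the genes. From Day-3 to Week-1 ITGB5 was higher by 0.58 (95% interval 0.27 to 0.88) and LMNA by 0.56 (0.25 to 0.87), each without overlap of the dogs. AKAP13 1587481_at differed by 0.23 (-0.07 to 0.54), also without overlap, and ANKRD1 by -0.51 (-1.13 to 0.11). The share of all probe sets without overlap between paced groups was not counted, here or for the groups described above. The intervals do not pair dogs by their number. Limma called 0 of the 7 probe sets and 0.0% of all. The adjusted p was 0.817 for ITGB5 and 0.953 for LMNA, the only 2 of the 7 with an unadjusted p under 0.05, against 689 of all probe sets. Without Week-1 dog 1 the differences were 0.54 for ITGB5 and 0.70 for LMNA.

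From Week-1 to Week-2 ITGB5 differed by -0.22 (95% interval -0.52 to 0.08), LMNA by -0.24 (-0.55 to 0.07), AKAP13 1587481_at by -0.11 (-0.41 to 0.19) and ANKRD1 by 0.24 (-0.38 to 0.86). From Week-2 to End-stage the differences were -0.18 (-0.49 to 0.12), 0.07 (-0.24 to 0.38), -0.10 (-0.40 to 0.20) and -0.28 (-0.89 to 0.34). Each of these intervals includes 0. Without the 2 dogs whose arrays matched each other, the first 4 differences were -0.19, -0.38, -0.09 and 0.21 and the second 4 were -0.26, 0.13, -0.17 and -0.25, in the same order of genes. Limma called 0 of 7 and 0.0% of all probe sets in both contrasts, with 0 of 7 and 826 of all at an unadjusted p under 0.05 in the first, and 0 of 7 and 600 in the second. A moderated F test for any difference among the 4 paced groups also called 0 of 7 and 0.0% of all. Its unadjusted p was under 0.05 for 2 of the 7, ITGB5 and LMNA, and for 598 of all probe sets.

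ITGB5, LMNA and AKAP13 1587481_at moved together over all dogs more than within groups. Over the 15 dogs ITGB5 correlated with LMNA at a Pearson r of 0.78 and with AKAP13 1587481_at at 0.76, and LMNA correlated with AKAP13 1587481_at at 0.61. After removal of the group means the same 3 values were 0.09, 0.12 and -0.46. LMNA and ANKRD1 correlated at -0.62, and at -0.30 after removal of group means. The points share the low Day-0 dogs and the group structure, and the correlations are descriptions over 15 dogs.

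The genes whose pattern over the 15 dogs was most like that of each probe set were taken by the highest Pearson r among 7674 single-symbol probe sets, as a description chosen from that many. For ITGB5 they were STAMBPL1, a deubiquitinase (r 0.87), CTNS, the lysosomal cystine transporter (0.84), EPS15, an adaptor of endocytosis (0.83), MTPN, myotrophin (0.83), and NUDC (0.83). After removal of group means MTPN stayed at 0.88 and STAMBPL1 was at 0.48. For LMNA they were CTSZ, a lysosomal cathepsin (0.89), CXADR, a receptor of the intercalated disc (0.88), CIB2 (0.86), SVEP1, a matrix protein (0.85), and LOC474850 (0.84). CXADR had 0.78 and CIB2 0.46 after removal of group means.

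AKAP13 1587481_at was most like PPP1R14C, an inhibitor of protein phosphatase 1 (0.87), ERGIC2 (0.87), CLGN, a chaperone (0.86), TRIB1, a pseudokinase (0.86), and SLC22A3, an organic cation transporter (0.86). SLC22A3 had only 0.17 within groups, so its likeness lay between them. ANKRD1 was most like SQOR, a mitochondrial enzyme of sulfide oxidation (0.86), KCNJ8, the pore subunit of a vascular ATP-sensitive potassium channel (0.83), ELMOD3 (0.80), ABCD3, a peroxisomal transporter (0.80), and KALRN (0.77). These 5 kept 0.72 to 0.85 within groups, and between isolations of a dog they had -0.14 to 0.02.

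The other 3 AKAP13 probe sets had other neighbours. The gene most like 1605402_at was ZMYM1 (0.89), followed by ARID4B (0.85), a second probe set of titin (0.85), CCNT2 (0.84) and SRSF3 (0.84). Of these, ZMYM1, ARID4B, titin and SRSF3 also moved with 1605402_at between isolations of the same dog, at 0.65 to 0.73 over 45 arrays. For 1585933_at the closest were CLTC, the clathrin heavy chain (0.91), HNRNPUL2 (0.89), SSR1 (0.88), HERC4 (0.86) and SLC38A1 (0.84). For 1585934_s_at they were SGMS1 (0.86), PJA2 (0.82), CLIC4 (0.81), TARDBP (0.81) and CSNK2A2 (0.81).

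Partner genes were set beside the 4 genes from a list of 38, of which 19 had a probe set and all 19 were tested. Each gene was taken by its brightest probe set. Limma called 0 of the 19 in each contrast with Day-0. The unadjusted p was under 0.05 for 5 at Day-3, 6 at Week-1, 4 at Week-2 and 5 at End-stage, against 1154, 1287, 1597 and 1177 of the 14301 probe sets tested. All 3 dogs lay above Day-0 in 2 of the 19 at Day-3, 4 at Week-1, 2 at Week-2 and 4 at End-stage, where 6.16%, 6.73%, 8.08% and 6.34% of all tested probe sets did so. They lay below in 1, 1, 2 and 2, against 6.44%, 9.4%, 9.21% and 7.94% of all. The median estimate of the 19 was 0.26, 0.18, 0.25 and 0.17 in order of time, against -0.02 to 0.00 over the 5278 genes tested. The partners and the pathway lists below were chosen with earlier results of these data known, so their counts and medians are a description. The shares over all 14301 probe sets are not limited to the brightest probe set of a gene.

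The partner subunit of ITGB5, ITGAV, differed from Day-0 by 0.36, 0.48, 0.35 and 0.60 (SE 0.17), and only its End-stage dogs, at 10.52 to 10.72, all lay above Day-0, at 9.79 to 10.23. The integrin-linked kinase ILK differed by 0.26, 0.53, 0.32 and 0.48 (SE 0.15), without overlap with Day-0 at Week-1 and End-stage. The subunit ITGB1, the adaptors TLN1 and VCL and the ligand VTN had estimates between -0.17 and 0.46. Among the other ligands CCN2, a matricellular protein and a target of YAP, differed by 1.22, 1.47, 2.31 and 1.79 (SE 0.51). Its dogs were at 9.03 to 9.37 at Day-0 and 10.65 to 12.30 at Week-2. At Day-3 they ran from 8.95 to 11.64, which reached below the lowest Day-0 dog. SPP1, osteopontin, differed by 1.55, 1.403, 0.45 and 1.15 (SE 0.64), and its Week-2 dogs ran from 4.99 to 7.99, against 4.84 to 6.15 at Day-0. In the other paced groups its dogs lay above Day-0 without overlap. CCN1 differed by 1.13, 0.44, 1.69 and 0.82 (SE 0.52), and its Week-2 dogs lay above Day-0 without overlap. YAP1 itself differed by 0.09, 0.33, 0.27 and 0.26 (SE 0.12) and TEAD1 by 0.27 to 0.40 (SE 0.30). ITGB1 at Day-3, CCN2 and YAP1 at Week-1 and CCN2 at End-stage also lay above Day-0 without overlap.

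For ANKRD1 the brightest probe set of the titin gene TTN differed by -0.11 to -0.08 in the 4 groups (SE 0.21). The second titin probe set, which followed AKAP13 1605402_at at an r of 0.85, is not covered by these values. The binding partner MYPN, myopalladin, differed by -0.15 to 0.07 (SE 0.19). YBX1, the transcription factor that ANKRD1 binds, differed by -0.23 to -0.05 (SE 0.13). The skeletal actin gene ACTA1, a gene of the fetal programme in the ventricle, differed by -2.26, -1.35, -1.52 and -1.21 (SE 0.36), and its dogs lay below Day-0 in all 4 groups, at 6.39 to 8.91 against 9.65 to 10.15. The myosin heavy chain MYH7 differed by -0.15 to -0.10 (SE 0.23). For AKAP13 the catalytic subunit PRKACA of protein kinase A differed by 0.72, 0.45, 0.39 and 1.00 (SE 0.46). PRKD1, protein kinase D, differed by -0.18, -0.70, -0.85 and -0.16 (SE 0.43), and the anchoring protein AKAP12 by -0.10 to 0.25 (SE 0.25). PRKD1 at Week-2 and, by a narrow margin, YBX1 at End-stage lay below Day-0 without overlap.

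**Figure D4:**
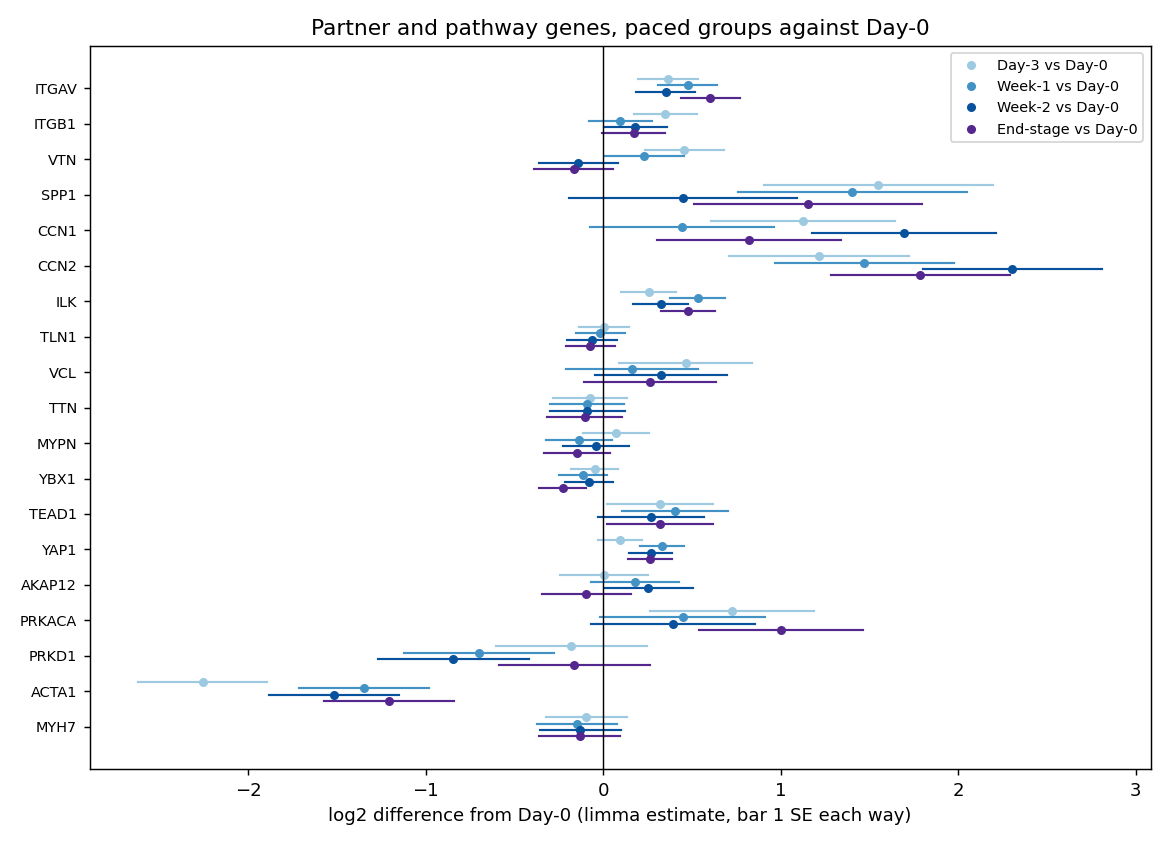
Log2 difference from Day-0 (horizontal axis) of the 19 partner and pathway genes tested (vertical axis) in each paced group. Each gene is shown by its brightest probe set, points are limma estimates and bars 1 SE each way. CCN2, CCN1 and SPP1 are among the genes whose points lie to the right in all 4 groups, and the ACTA1 points lie to the left in all 4. The bars of SPP1 at Week-2 and of CCN1 at Week-1 cross 0. TTN, MYPN, TLN1 and MYH7 lie near 0.

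Pathway lists were counted in the same way over the genes on the array. Of 9 tested ligands with an RGD motif or of alpha V beta 5, 1 rose at Week-2, THBS1, thrombospondin, and 0 fell. THBS1 had 8.14, 8.79 and 8.34 at Day-0 and 10.27, 10.13 and 10.21 at Week-2, a difference of 1.78 (SE 0.23, limma adjusted p = 0.0101), in a contrast that called 0.0839% of all probe sets. Without Week-2 dog 2 the difference was 1.81, but limma called 0 probe sets in that contrast, so this call is lost. In the other 3 groups 0 of the 9 passed, with 4, 3 and 3 at an unadjusted p under 0.05 at Day-3, Week-1 and End-stage, against 1154, 1287 and 1177 of 14301. Limma called 0 genes in either direction against Day-0 in the other pathway lists given here. These were integrin subunits (12 tested), adhesion adaptors and kinases (17), nuclear lamina and envelope genes (8), prelamin processing (1), titin and Z-disc partners (21), cardiac transcription factors (6), anchoring proteins of protein kinase A (5), YAP and TEAD targets (8), SRF and MRTF targets (21) and haemodynamic load markers (10). The median of the ligand list was 0.64, 0.44, 0.56 and 0.77 in order of time, while that of the nuclear lamina list was 0.11, 0.02, -0.05 and 0.05. In the nuclear lamina list 0 of 8 genes had an unadjusted p under 0.05 in any of the 4 groups.

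Whole left ventricular tissue holds several cell types, and fewer cells of a type and less RNA per cell cannot be told apart in it. Summed endothelial marker signal, over 5 of 12 markers on the array, was 2157 to 2330 in the Week-1 dogs and 2558 to 2737 at Day-0, without overlap, in the group where ITGB5 and LMNA were highest. At Week-2 it was 2753 to 3352, above Day-0. The median estimate of the 5 endothelial genes against Day-0 was nevertheless below 0 in both, at -0.25 and -0.18. Smooth muscle and pericyte markers, 6 of 12, of which KCNJ8 is also among the genes most like ANKRD1, summed to 11230 to 13640 at End-stage and 13790 to 16150 at Day-0. Fibroblast markers (8 of 11 on the array, POSTN below the filter) summed to 8614 to 14630 at Week-1 and 8172 to 11650 at Day-0, and macrophage markers (11 of 12) to 691.6 to 1373 and 743.9 to 974.2, both with overlap. Gene by gene, the fibroblast markers had a median estimate of 0.50, 0.48, 0.40 and 0.24 in order of time, with 5, 6, 6 and 6 of the 7 tested above 0. Cardiomyocyte markers summed to 55780 to 81420 at Week-1 and 60290 to 90120 at Day-0, and 0 of 8 had an estimate above 0 in any paced group, with medians of -0.11, -0.21, -0.16 and -0.17. Smooth muscle and pericyte markers had medians of -0.10, -0.08, -0.37 and -0.55, and macrophage markers of 0.42, 0.17, 0.17 and 0.21. Limma called 0 genes of these marker lists; at an unadjusted p under 0.05 there were 0 to 4 in a list and group. The 3-prime to 5-prime signal ratio of GAPDH, a measure of RNA integrity, was 0.932 to 0.983 at Day-0 and 0.913 to 0.967 at Week-1. Its widest range was 0.880 to 1.02, at Day-3. The same ratio of actin was farther from 1, at 0.121 to 0.227 at Day-0 and 0.122 to 0.244 at Week-1. The part of these in the values of the 4 genes was not tested.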

How the data were processed

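Per the submitters' processing notes, GCOS 1.4 and MAS5 were used, and the deposited values are MAS5 signal intensity per probe set on a linear scale, scaled by the authors: the mean of each array without the lowest and highest 2% was 150.0. After removal of 77 control probe sets, log2 signals were averaged per dog over its arrays. A linear model with the 5 groups was fitted over the 15 dogs in R 4.3.3 by limma 3.58.1 (lmFit, eBayes with trend), two-sided, with Benjamini-Hochberg adjustment over 14301 probe sets. The code was tested on simulated data. Gene names came from the array's annotation, and symbols from RefSeq. The members and lists were chosen with earlier results of these data known. Named were all probe sets of the 4 genes, the 5 genes most alike in pattern, the partner list and list members past the threshold. Dogs sharing a number were correlated (Pearson) over probe sets after group means were removed. All 3 values exceeded 0.1 for Day-3 with Week-1 (0.167, 0.296, 0.318) and Week-2 with End-stage (0.230, 0.242, 0.102). They also did so for Day-3 with Week-2 (0.173, 0.166, 0.101), which were not compared here. With Day-0 dogs this held for no paced group. The labels do not name dogs that share a number as pairs, and what such dogs share was not tested. The main fit and its intervals did not use the number. The number of dogs limits the precision. Alternatives are in the closing section. The result of 1 pathway list is not reported here.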

Additional observations from a re-analysis of the deposited data

How the results depend on the processing

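Of the 7 probe sets, 0 were called in any comparison as reported, and the alternatives that gave calls were these. With all 45 arrays and the dog as a random block, which treats the isolations as further observations of a dog, 1 was called at Day-3, 3 at Week-1, 3 at Week-2 and 2 at End-stage. At Week-1 quantile normalization gave 1, log2 of signal plus 16 gave 2 and the replicate block gave 1, and the replicate block gave 2 at Week-2. From Day-3 to Week-1 and from Week-2 to End-stage the replicate block changed no call of the 7, which stayed at 0. Leaving out 1 dog gave 0 calls of the 7 in every comparison. Counts over all probe sets moved more: 0 to 273 at Day-3, 0 to 377 at Week-1, 0 to 483 at Week-2 and 0 to 322 at End-stage, the highest each time with the random block, and leaving out 1 dog gave 0 to 23, 0 to 0, 0 to 20 and 0 to 6. The replicate block gave 17 at Week-1 and 88 at Week-2. The direction against Day-0 held under every alternative for ITGB5, LMNA and AKAP13 1587481_at in the 4 groups, and for ANKRD1 in all but Day-3. Between paced groups, leaving out 1 dog at a time gave -0.10 to 0.49 for ANKRD1, -0.38 to -0.11 for LMNA and -0.20 to -0.01 for AKAP13 1587481_at from Week-1 to Week-2, and from Week-2 to End-stage -0.53 to 0.058 for ANKRD1, -0.06 to 0.16 for LMNA and -0.20 to 0.012 for AKAP13 1587481_at, which median centring put at 0.031. Median centring shifted the median of all probe sets by -0.12 from Week-1 to Week-2 and by 0.13 from Week-2 to End-stage. The causes were not tested. Low signal limits AKAP13 1585933_at and ITGB5 1600264_at.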
